A study of Mus musculus with 40 samples.

Results

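The genes described here encode the subunits of voltage-gated sodium and calcium channels. They were taken by symbol alone, as every gene named Scn with a number and a or b, and every Cacna1, Cacna2d, Cacnb or Cacng gene, which gave 40 of the 40213 symbols in the count files. The 40 comprised 10 sodium channel alpha subunits, 4 sodium channel beta subunits, 10 pore-forming calcium channel subunits (4 of the L-type, 3 of the P/Q-, N- and R-type and 3 of the T-type family), 4 alpha2delta subunits, 4 calcium channel beta subunits and 8 gamma subunits. RNA sequencing measured them in 20 midbrain and 20 spinal cord libraries (40 in all) of male C57BL/6N mice whose labelled age was 8 weeks. Each tissue held 5 groups of 4 libraries. Con mice received saline. MPTP-Veh mice received 4 intraperitoneal injections of MPTP at 20 mg/kg, given every 2 h, and per the study's methods saline at the acupoint GB34. MPTP-SU mice received MPTP and then 4 injections of SUEHP, an herbal extract injected at GB34 from 1 week after MPTP. MPTP-SU+S mice received in addition the CB1 antagonist labelled SR141714A at 3 mg/kg, and MPTP-SU+T mice the PPARγ inhibitor T0070907 at 5 mg/kg. MPTP is turned, mainly in glia, into a toxic metabolite that the dopamine transporter carries into dopaminergic neurons, so these mice model the loss of such neurons and not the whole of Parkinson's disease. All groups but Con had received MPTP, and both inhibitor groups had also received SUEHP, so an inhibitor alone was not measured. The labels do not say that libraries of a group came from separate mice, so p-values here measure only the spread between these libraries.

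A sodium channel alpha subunit forms the pore that opens on depolarization and carries the rising phase of the action potential, while beta subunits set its gating and surface level and act as adhesion molecules. A calcium channel is built on a pore-forming alpha1 subunit, joined by an intracellular beta subunit and an extracellular alpha2delta subunit. Some alpha2delta subunits, not all, are the binding target of gabapentin. P/Q- and N-type channels trigger transmitter release, T-type channels drive burst firing in thalamic and other neurons, and L-type channels link depolarization to gene expression and to pacemaking in dopaminergic neurons. Most gamma subunits are better known as TARPs, proteins that carry AMPA-type glutamate receptors to the synapse.

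Midbrain libraries held 11958200 to 16639823 counts and spinal cord libraries 14642808 to 16615378, and the 40 genes together took 0.241% to 0.312% and 0.237% to 0.281% of them. Dopaminergic neuron markers (5 genes) summed to 328 to 620 CPM (counts scaled to a common library size) in the midbrain and 181 to 214 in the spinal cord, and motor neuron markers (6 genes) to 6.91 to 41.0 and 188 to 243. Midbrain libraries differed in markers of neighbouring regions: those of the hypothalamus (6 genes) summed to between 1.70 and 657 CPM. 1 midbrain library, MPTP-Veh replicate 4, stood apart. Its mitochondrial share was 1.35% of counts, against 9.92% to 17.5% in the other 19 midbrain libraries, and its rank correlation with the tissue's median library was 0.888 against at least 0.987 in the others. Among the 34 channel genes tested, this library held the lowest of the 20 midbrain values for 16 and the highest for 10. Over all 16629 genes tested it held the lowest for 36.4% and the highest for 34.1%. Its log2 values also deviated with transcript length (slope -0.26 per doubling, against -0.0521 to 0.0785 in the other 19) and with GC content (slope 1.07 per 10 percentage points, against -0.299 to 0.112). Results that rest on it are therefore given with and without it.

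Levels were compared per kilobase of each gene's longest annotated transcript. Cacng7, which encodes a TARP, stood at 61.6 ± 24.3 CPM per kb in the midbrain against 59.1 ± 5.26 in the spinal cord (SD, n = 20 libraries each, all groups). In the midbrain, Scn2b came next at 50.6 ± 26.5, less than 1 SD lower, and after it Scn1a (23.2 ± 5.88), Cacng4 (23.1 ± 19.0), Scn4b (23.0 ± 5.25) and Scn8a (21.2 ± 1.55) lay within 1 SD of one another. In the 19 midbrain libraries other than MPTP-Veh replicate 4, Cacng7 stood at 56.5 ± 8.90 and Scn2b at 44.7 ± 3.24, a gap of more than 1 SD, and Scn1a (24.1 ± 4.09), Scn4b (22.1 ± 3.56) and Scn8a (21.3 ± 1.59) came above Cacng4 (18.9 ± 2.6). In the spinal cord, Scn4b stood at 54.2 ± 2.20, less than 1 SD below Cacng7 and more than 10 SD above Scn8a (31.9 ± 1.34). The clearest steps farther down separated Cacna1i (3.56 ± 1.40) and Cacna1d (3.51 ± 0.632) from Scn9a (0.843 ± 0.238) in the midbrain, and Scn3a (2.19 ± 0.280) from Scn9a (0.776 ± 0.142) in the spinal cord. Most neighbours in the midbrain order did not differ beyond their spread. Among the 34 genes tested within tissues, 33 varied more between midbrain than between spinal cord libraries, with a median coefficient of variation of 26.3% against 7.93%, and without MPTP-Veh replicate 4 it was 32 genes and 16.7%.

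**Figure D1:**
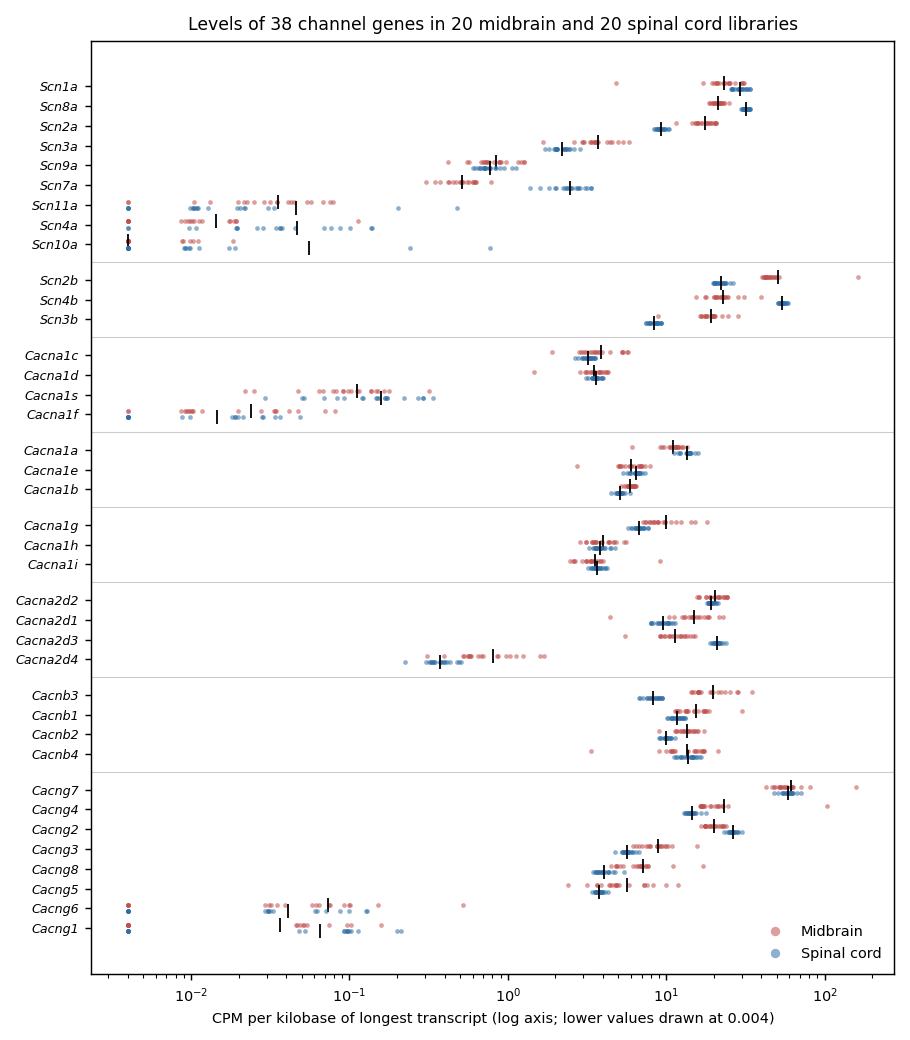
Level of 38 channel genes in CPM per kb of transcript (log axis), with 1 point per library, midbrain in red and spinal cord in blue, a tick at each tissue's mean, and values near 0 drawn at the left edge. Cacng7 is among the highest in both tissues, and 6 genes (Scn4a, Scn10a, Scn11a, Cacna1f, Cacng1 and Cacng6) lie near 0 in most libraries.

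Within families the tissues shared out the same genes differently. Of the summed per-kb level of the sodium channel alpha subunits, Scn8a, the subunit of mature nodes of Ranvier and axon initial segments, made up 32.1 ± 5.48% in the midbrain against 41.8 ± 2.05% in the spinal cord. Scn1a, the main subunit of fast-spiking inhibitory neurons, made up 33.8 ± 6.19% and 38.5 ± 2.08%. Scn2a, which is prominent in unmyelinated axons and excitatory neurons, made up 26.0 ± 2.15% and 12.1 ± 0.458%. Among the beta subunits, Scn2b took 25.7 ± 3.18% and 12.5 ± 0.813% and Scn4b, which supports resurgent current, 12.2 ± 1.83% and 30.7 ± 1.00%.

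Among the calcium channels, Cacna1a (P/Q-type) gave 48.0 ± 3.44% of its family's summed level in the midbrain against 54.1 ± 2.95% in the spinal cord, ahead of the N-type Cacna1b and the R-type Cacna1e in both. Cacna1g was the leading T-type gene at 56.6 ± 9.08% and 47.2 ± 1.77%. Cacna1c and Cacna1d shared nearly all of the L-type level, with Cacna1c at 51.0 ± 6.26% and 46.0 ± 2.14%. The leading alpha2delta gene was Cacna2d2 in the midbrain (43.4 ± 8.98%) and Cacna2d3 in the spinal cord (41.9 ± 1.30%). Each exceeded the next gene, Cacna2d1 in the midbrain (31.1 ± 6.41%) and Cacna2d2 in the spinal cord (38.3 ± 2.00%), by less than 2 times the larger SD. Of the beta subunits, Cacnb3 led in the midbrain (31.5 ± 5.38%) and Cacnb4 in the spinal cord (31.5 ± 3.18%). Cacnb1 came next in both, at 24.9 ± 6.40% and 26.7 ± 2.21%, again less than 2 times the larger SD lower.

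6 genes were near the limit of detection, where a count of 0 allows up to 3 counts at 95% confidence and covers counting error only. The muscle sodium channel Scn4a reached at most 8 counts in a midbrain and 15 in a spinal cord library, the retinal L-type gene Cacna1f 9 and 5, the muscle gamma subunit Cacng1 3 and 4, and Cacng6 11 and 4. Scn1a, Scn2a, Scn3a and Scn9a are close paralogs, among which a quantifier can divide shared reads, and how many reads they shared was not measured here. Scn10a and Scn11a encode the tetrodotoxin-resistant channels of nociceptive sensory neurons, whose cell bodies lie in the dorsal root ganglia and not in the cord. Scn10a was at 0 in 14 of 20 midbrain libraries and reached at most 2 counts in the others. In the spinal cord Scn10a was at 0 in 10 libraries and at no more than 0.126 CPM in 8, but it stood at 5.20 CPM (83 counts) in MPTP-SU replicate 2 and at 1.65 CPM in MPTP-SU+T replicate 1. Scn11a was at 2.82 and 1.22 CPM in the same 2 libraries and at no more than 0.199 CPM in the other 18. Sensory ganglion markers (6 genes) summed to 35.6 CPM in MPTP-SU replicate 2, the highest of the 20, and to 17.8 CPM in MPTP-SU+T replicate 1, which lay within the 13.1 to 20.0 CPM of the other 18. The part of ganglion tissue in these 2 libraries was not tested.

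The question of which channel genes distinguish the midbrain from the spinal cord was put to all 40 libraries in 1 model, over 17426 genes of which 35 were channel genes (Scn4a included). A gene was called where the Benjamini-Hochberg adjusted p of edgeR's quasi-likelihood test was below 0.05 and the fold above 1.5. 15 of the 35 channel genes were called, 42.9% against 22% of all genes tested, and 14 of 34 (41.2%) leaving aside Scn4a, which passed the expression filter through few libraries. 10 were higher in the midbrain, against 9.8% of all genes, and 5 in the spinal cord (4 leaving aside Scn4a), against 12.2%. At an adjusted p below 0.05 with no fold threshold, 25 passed (66.2% of all genes did). The median log2 fold change, midbrain over spinal cord, was 0.11 over the channel genes and 0.02 over all genes. Of the channel genes, 22 of 35 were above 0 (52.3% of all genes). Leaving aside Scn4a, the median was 0.17 and 22 of 34 were above 0. Values in these comparisons are CPM scaled across both tissues, and since these are bulk tissues, fewer cells of a type and less RNA per cell cannot be told apart.

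Promoter sequences of 3 sodium channel genes are shown (RefSeq, mouse build GRCm38.p6, 250 bases before to 50 after the start, 5′ to 3′). Scn2b and Scn4b are shown because they are neighbours on chromosome 9 that differed between the tissues in opposite directions, and Scn7a, on chromosome 2, because it differed most. Capitals mark any of 3 motifs. The first is GGGCGG, known as the GC box and bound by Sp-family factors. The second is TATAAA, a common form of the TATA box. The third is CCAAT, the core of the box of that name. Each was searched on both strands, so that a match on the reverse strand is printed as its complement. The count files use the build GRCm39, and the sequences were matched by symbol.
Scn2b, chr9:45117626-45117925, plus strand: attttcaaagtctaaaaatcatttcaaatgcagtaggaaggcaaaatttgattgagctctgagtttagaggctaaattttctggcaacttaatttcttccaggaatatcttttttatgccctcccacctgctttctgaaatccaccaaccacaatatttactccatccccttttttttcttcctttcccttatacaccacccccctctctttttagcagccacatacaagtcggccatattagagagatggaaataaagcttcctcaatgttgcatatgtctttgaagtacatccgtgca
Scn4b, chr9:45138374-45138673, plus strand: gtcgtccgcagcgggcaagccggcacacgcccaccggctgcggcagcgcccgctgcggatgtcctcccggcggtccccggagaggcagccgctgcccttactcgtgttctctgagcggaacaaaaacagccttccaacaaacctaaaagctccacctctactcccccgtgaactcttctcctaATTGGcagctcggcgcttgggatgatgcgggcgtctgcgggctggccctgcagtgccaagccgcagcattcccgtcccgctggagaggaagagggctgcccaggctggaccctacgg
Scn7a, chr2:66784861-66785160, minus strand: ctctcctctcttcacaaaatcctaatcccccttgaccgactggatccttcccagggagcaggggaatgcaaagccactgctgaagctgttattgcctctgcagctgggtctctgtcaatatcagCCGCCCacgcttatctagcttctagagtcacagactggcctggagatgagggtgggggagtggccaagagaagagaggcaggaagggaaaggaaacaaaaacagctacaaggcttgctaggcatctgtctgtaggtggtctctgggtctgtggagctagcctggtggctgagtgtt
The neighbours differ in base composition: the Scn2b window has a GC content of 38.3% and none of the 3 motifs, and the Scn4b window 66.3% with 1 CCAAT. The Scn7a window has 54% GC and 1 GGGCGG. Of all 32851 RefSeq promoter windows of that length, 35.7% hold GGGCGG, 37.4% CCAAT and 13.6% TATAAA. 30 of the 40 channel genes matched 41 windows, of which 16, 10 and 2 hold these motifs, and the median GC content was 59.3% in them and 52.7% over all windows.

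Scn7a, a sodium-sensing relative of the voltage-gated channels that is expressed by glia and neurons, ranged from 2.23 to 5.79 CPM in the midbrain (median 3.74) and from 10.1 to 24.6 in the spinal cord (median 18.2). All 20 spinal cord values lay above all 20 midbrain values, and the log2 fold change was -2.26 (SE 0.10, adjusted p = 4.11e-20 by edgeR). Markers of Schwann cells, which express Scn7a, summed to 893 to 1980 CPM over 5 genes in spinal cord libraries and 217 to 511 in midbrain libraries, with 4 of 5 called higher in the spinal cord. Their part in the difference was not tested.

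Scn4b ranged from 77.3 to 198 CPM in the midbrain (median 110) and from 253 to 292 in the spinal cord (median 270), again without overlap (log2 fold change -1.25, SE 0.06, adjusted p = 1.03e-19 by edgeR). Its neighbour Scn2b, a beta subunit linked to the channel by a disulfide bond, went the other way, from 187 to 756 CPM in the midbrain (median 206) against 91.5 to 122 (median 102) in the spinal cord. The ranges did not overlap either, and the log2 fold change was 1.16 (SE 0.10, adjusted p = 6.17e-13 by edgeR). The value of 756 was that of MPTP-Veh replicate 4, without which the log2 fold change was 1.02. Scn3b ranged from 36.6 to 117 CPM in the midbrain (median 80.8) and from 30.9 to 38.7 in the spinal cord (median 35.3), with a fold change of 1.17 on the log2 scale (SE 0.06, adjusted p = 1.12e-18 by edgeR). It was the lowest midbrain value, again of MPTP-Veh replicate 4, that met the spinal cord range.

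2 of the main alpha subunits also separated the tissues completely and in opposite directions. Scn8a ranged from 214 to 285 CPM in midbrain and from 339 to 390 in spinal cord libraries (log2 fold change -0.59, SE 0.03, adjusted p = 1.16e-18 by edgeR), and Scn2a from 103 to 184 and from 74.6 to 93.3 (0.92, SE 0.05, adjusted p = 1.14e-16). Scn8a passed the fold threshold narrowly and no longer did without MPTP-Veh replicate 4, the only one of the 15 calls to be lost with that library. Its call was also lost, and that of Cacng4 gained, in other fits that left out 1 library. Scn3a, an alpha subunit best known from the developing brain (log2 fold change 0.75), was also higher in the midbrain. Scn4a was called higher in the spinal cord (-1.89, SE 0.47) at values of 0 to 0.747 CPM in the midbrain and 0 to 0.919 in the spinal cord, whose ranges overlapped. It passed the filter of neither tissue on its own, and that of the joint model through 4 libraries, 3 of the spinal cord and MPTP-Veh replicate 4 of the midbrain. Its value is therefore given as a description and not as a test. Skeletal muscle markers, all 6 of which were called higher in the spinal cord, summed to 199 and 172 CPM in the 2 spinal libraries with the highest Scn4a, MPTP-Veh replicates 1 and 4 (0.913 and 0.919 CPM). The part of muscle tissue in the Scn4a call was not tested. Scn1a (-0.37) passed the adjusted p but not the fold threshold, and Scn9a (0.11, adjusted p = 0.301) passed neither with edgeR.

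Of the auxiliary calcium channel subunits, Cacna2d3 ranged from 20.3 to 56.6 CPM in the midbrain (median 41.8), below every spinal cord value (median 78.1, highest 88.4) (log2 fold change -0.90, SE 0.06, adjusted p = 2.30e-15 by edgeR). Cacnb3 ranged from 39.5 to 95.1 CPM in the midbrain (median 48.4) and from 18.5 to 25.9 in the spinal cord (median 23.0), also without overlap (1.25, SE 0.09, adjusted p = 4.86e-15). The low-expressed Cacna2d4 ranged from 1.79 to 9.89 CPM (median 3.85) and from 1.31 to 2.95 (median 2.17), with overlap (1.08, SE 0.16, adjusted p = 3.03e-07). Cacna2d1, the alpha2delta subunit with the best described role in neuropathic pain, was higher in the midbrain (0.64), as were the TARP genes Cacng3 (0.62) and Cacng8 (0.79).

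None of the 9 pore-forming calcium channel genes tested was called. Cacna1g (log2 fold change 0.56), Cacna1a (-0.31), Cacna1c (0.25) and Cacna1b (0.23) passed an adjusted p of 0.05 in edgeR's test below the fold threshold, and Cacna1d, Cacna1e, Cacna1h, Cacna1i and Cacna1s did not, with adjusted p-values from 0.119 to 0.582. The most abundant TARP gene, Cacng7, differed by 0.02 on the log2 scale (SE 0.07, edgeR adjusted p = 0.814).

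In all, 7 channel genes did not overlap between the 20 midbrain and 20 spinal cord libraries, against 9.08% of all genes: Scn2a, Scn2b and Cacnb3 lay higher in the midbrain and Scn7a, Scn8a, Scn4b and Cacna2d3 higher in the spinal cord. Without MPTP-Veh replicate 4 the count was 8, with Scn3b added (12% of all genes). Of 15 genes that bind sodium channels or build the axon initial segment, 3 were called (20%, against 22% of all genes). Fgf13 (0.81) was called higher in the midbrain and Nfasc, which anchors channels at nodes (-0.76), and Fgf11 (-0.59) higher in the spinal cord. Of 22 genes that regulate or couple to calcium channels, 7 were called (31.8%). The kinase gene Camk2a (1.30) and Cbarp (0.94) were higher in the midbrain, and Gem (-1.33), Stac (-1.27), Cabp1 (-0.77), Ryr2 (-0.62) and Stac2 (-0.61) higher in the spinal cord. The 40 libraries of this comparison include every treatment group in equal number.

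**Figure D2:**
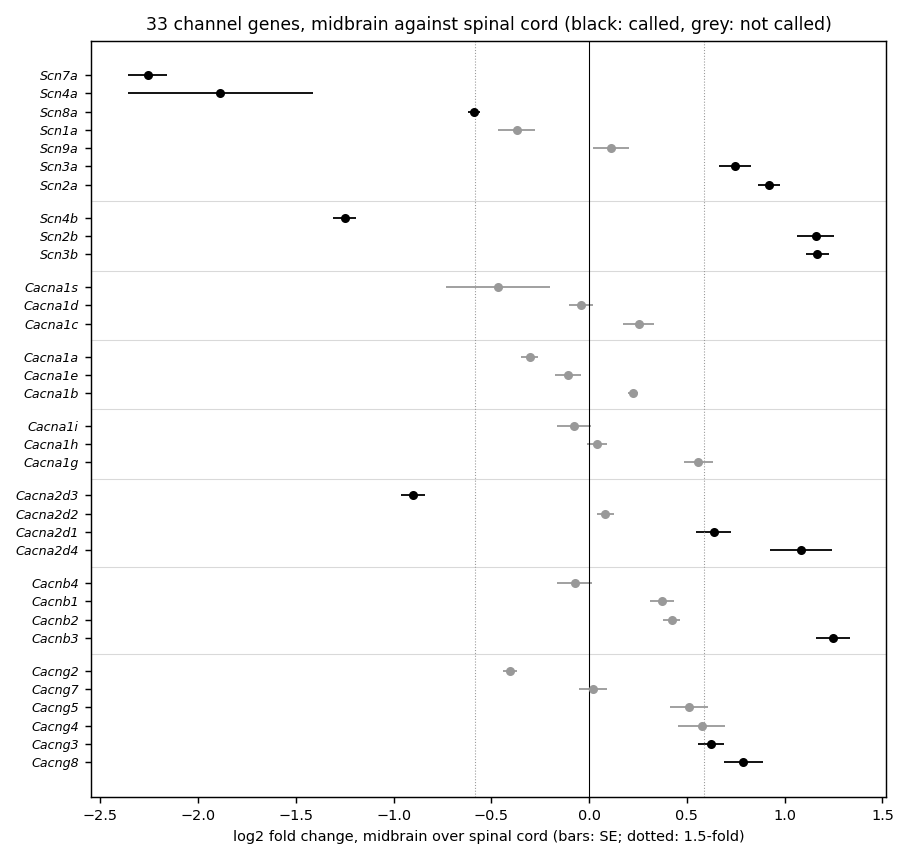
Log2 fold change of 33 channel genes, midbrain over spinal cord, with the standard error, in the model of all 40 libraries. Black points are genes called at an adjusted p below 0.05 and a fold above 1.5, from Scn7a at -2.26 to Cacnb3 at 1.25.

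The comparison of MPTP-Veh with Con asked what MPTP itself left in each tissue. The dopaminergic neuron markers of the midbrain overlapped between the groups and had the higher median in MPTP-Veh: they summed to 339 to 506 CPM in Con (median 460) and 334 to 620 in MPTP-Veh (median 552), with 0 of 5 called. In the midbrain none of the 34 channel genes was called by edgeR's quasi-likelihood test (0.018% of all genes were), and 9 had an unadjusted p below 0.05 (23.7% of all genes). DESeq2 called 2 (Scn3b and Scn4b), against 2.6% of all genes, and limma-voom 0, against 0.541%. 6 channel genes did not overlap between the groups, against 12.4% of all genes.

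The smallest p-values belonged to Scn3b, Cacng4 and Cacna1a, each with an adjusted p of 0.130 by edgeR. Scn3b stood at 80.5, 117, 102 and 93.7 CPM in Con and at 68.0, 70.1, 80.5 and 36.9 CPM in MPTP-Veh (log2 fold change -0.62, SE 0.17). 3 of 4 MPTP-Veh libraries lay below every Con library, and replicate 3 met the lowest of them. Replicate 4 was its lowest library, and leaving it out gave a log2 difference of -0.43 at an adjusted p of 0.112 by edgeR. In the fits that left out each of the 8 libraries the adjusted p ran from 0.0432 (without MPTP-Veh replicate 3) to 0.292, and it was below 0.05 in 1 of the 8.

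Cacng4 stood at 57.0, 57.8, 74.5 and 58.6 CPM in Con and at 78.7, 85.4, 72.6 and 363 in MPTP-Veh (log2 fold change 1.27, SE 0.37). Replicate 3 of MPTP-Veh lay within the Con range, and replicate 4 far above all others. Without MPTP-Veh replicate 4 it was 0.35 (SE 0.11, adjusted p = 0.224 by edgeR). Cacna1a stood at 100, 88.6, 89.3 and 85.4 CPM in Con and at 72.9, 74.3, 76.9 and 48.6 in MPTP-Veh (log2 fold change -0.41, SE 0.12). The groups did not overlap (exact two-sided permutation test, p = 0.0286, the smallest that 4 against 4 allows), and the difference was -0.28 without replicate 4. Leaving out MPTP-Veh replicate 3 instead gave 5 called genes, Cacng4, Cacng7, Scn2b, Scn3b and Scn4b (14.7% against 6.47% of all genes). Leaving out replicate 4 gave 0, against 0.00594% of all genes, with 11 at an unadjusted p below 0.05 (32.4% against 12.1% of all genes). 29 of the 34 fold changes then kept their sign, and Scn1a (-0.21 to 0.09), Scn2a (-0.08 to 0.06), Cacnb1 (0.13 to -0.16) and Cacng8 (0.16 to -0.33) were among the 5 that changed it, none of them called in either fit. Markers of the cortex and hippocampus, which lie next to the midbrain, summed over 5 genes to 26.5 to 137 CPM in Con and 6.02 to 28.3 in MPTP-Veh, and their part in these differences was not tested.

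The comparison of MPTP-SU with MPTP-Veh in the midbrain asked what SUEHP changed after MPTP. It shares the 4 MPTP-Veh libraries with the comparison above. 8 of 34 channel genes were called, 23.5% against 13.5% of all genes tested. 5 rose (4.35% of all genes) and 3 fell (9.1%). 12 passed an adjusted p of 0.05 without the fold threshold (20.1%), 22 an unadjusted one (39.8%), and 12 did not overlap between the groups (21.9%). The median log2 fold change was 0.18 over the channel genes and 0.00069 over all genes, and 21 of 34 were above 0 (50% of all genes).

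The genes that rose included 2 pore-forming subunits. Cacna1c, the main L-type gene of brain, stood at 40.2, 47.6, 41.8 and 25.1 CPM in MPTP-Veh and at 44.5, 70.1, 69.2 and 75.1 in MPTP-SU (log2 fold change 0.74, SE 0.23, adjusted p = 0.0355 by edgeR). MPTP-SU replicate 1 lay within the MPTP-Veh range, and the Con libraries, at 39.2 to 69.3 CPM, overlapped with both groups. Scn3a stood at 32.1, 24.9, 34.6 and 16.2 CPM in MPTP-Veh and at 55.5, 47.6, 33.9 and 35.6 in MPTP-SU (0.68, SE 0.22, adjusted p = 0.0387), and 1 MPTP-SU library lay within the range of MPTP-Veh. In both genes the exact two-sided permutation test gave p = 0.0571, as it did for Cacna2d1, described next.

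3 auxiliary genes rose with them. Cacnb4, a calcium channel beta subunit strongly expressed in thalamus and cerebellum, stood at 89.5, 86.6, 89.6 and 27.8 CPM in MPTP-Veh and at 138, 175, 142 and 123 in MPTP-SU (log2 fold change 0.98, SE 0.26, adjusted p = 0.0207 by edgeR). All 4 MPTP-SU values exceeded those of MPTP-Veh and of Con, which reached 112 CPM. Cacng5 stood at 16.3, 17.7, 14.2 and 8.94 CPM in MPTP-Veh and at 18.1, 27.9, 36.9 and 26.7 in MPTP-SU (0.94, SE 0.29, adjusted p = 0.0350), without overlap, although replicate 1 exceeded the highest MPTP-Veh library by less than 1 CPM. Cacna2d1 stood at 97.5, 77.7, 109 and 33.1 CPM in MPTP-Veh and at 159, 168, 128 and 107 in MPTP-SU (0.82, SE 0.25, adjusted p = 0.0333). The lowest MPTP-SU library fell just inside the MPTP-Veh range.

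3 genes fell. Of the 8 genes called, the TARP gene Cacng7 had the smallest p and the TARP gene Cacng4 the largest change. Cacng7 stood at 137, 177, 156 and 353 CPM in MPTP-Veh and at 103, 113, 122 and 107 in MPTP-SU (log2 fold change -0.88, SE 0.20, adjusted p = 0.0122 by edgeR). Cacng4 stood at 78.7, 85.4, 72.6 and 363 CPM in MPTP-Veh and at 57.6, 59.4, 59.4 and 66.8 in MPTP-SU (-1.30, SE 0.37, adjusted p = 0.0242). In both, every MPTP-SU library lay below every MPTP-Veh library, and replicate 4 of MPTP-Veh was far above the rest. Cacnb1, the beta subunit first known from skeletal muscle, stood at 51.3, 53.7, 57.6 and 104 CPM in MPTP-Veh and at 46.1, 39.1, 40.2 and 46.7 in MPTP-SU (-0.63, SE 0.18, adjusted p = 0.0264), again without overlap. In all 5 genes that did not overlap (Cacnb4, Cacng5, Cacng7, Cacng4 and Cacnb1) the exact two-sided permutation p was 0.0286.

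**Figure D3:**
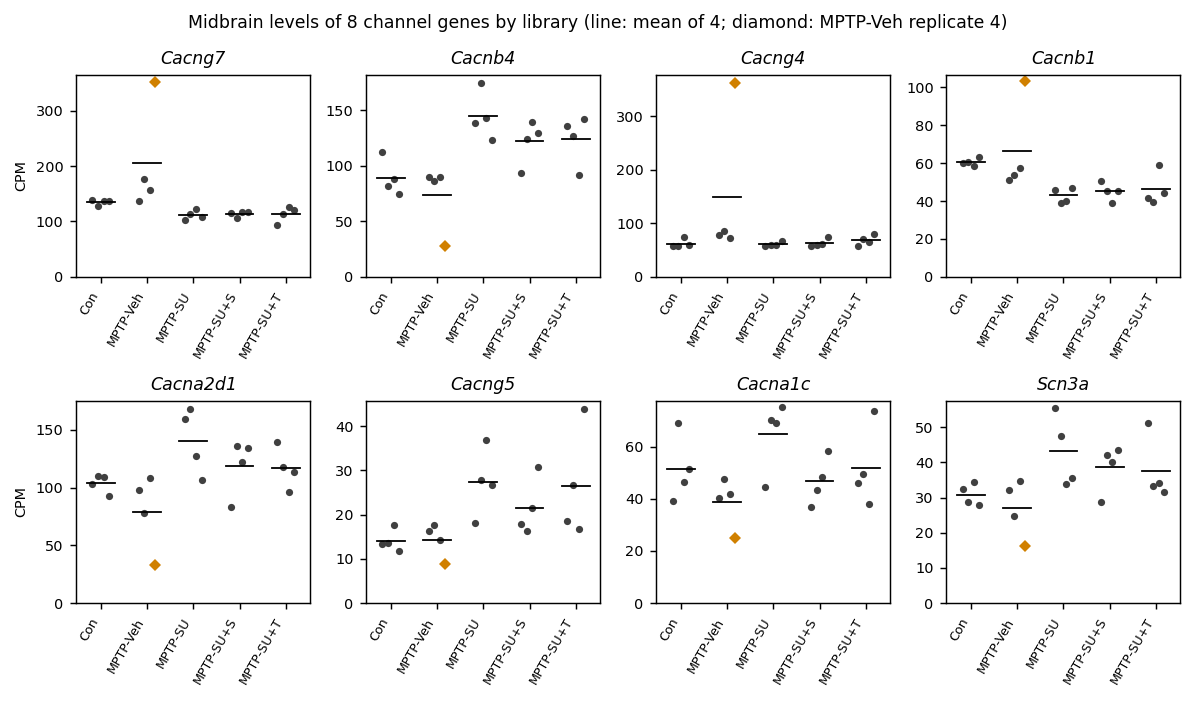
CPM in each midbrain library of the 8 channel genes called in MPTP-SU against MPTP-Veh, by group, with 4 libraries per group and a diamond for MPTP-Veh replicate 4. That library is the lowest of MPTP-Veh for the 5 genes that rose and the highest for the 3 that fell, and the inhibitor groups overlap with MPTP-SU.

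A further 4 genes passed the adjusted p but not the fold threshold. Cacng2, the gene of stargazin, stood at 125, 131, 128 and 118 CPM in MPTP-Veh and at 90.8, 96.5, 95.9 and 100 in MPTP-SU (log2 fold change -0.39, SE 0.10, adjusted p = 0.0160 by edgeR), with no overlap and with MPTP-Veh replicate 4 close to its group. Cacna1a (0.44, adjusted p = 0.0218), Cacna2d3 (0.54, adjusted p = 0.0402) and Cacna1h (-0.43, adjusted p = 0.0450) were the others. Without MPTP-Veh replicate 4, Cacna1h came to -0.30 (adjusted p = 0.134 by edgeR) and no longer passed. Cacna2d3 came to 0.39 (adjusted p = 0.0913 by edgeR) and no longer passed either, while Cacna1a came to 0.31 (adjusted p = 0.0159 by edgeR) and still did. For Cacna1a and Cacna2d3 the remaining libraries of the groups did not overlap. None of the 4 sodium channel beta subunits was called, and for Scn2b the log2 fold change was -0.78 (SE 0.28, edgeR adjusted p = 0.0557). By family the median log2 fold changes were 0.52 over 7 sodium channel alpha subunits (0.39 without MPTP-Veh replicate 4), -0.40 over 4 sodium channel beta subunits (-0.07 without it), 0.43 over 3 L-type genes (0.49) and 0.29 over 3 P/Q-, N- and R-type genes (0.16). They were -0.43 over 3 T-type genes (-0.16 without that library), 0.53 over 4 alpha2delta subunits (0.42), 0.19 over 4 calcium channel beta subunits (0.23) and -0.51 over 6 gamma subunits (-0.34). All 8 medians kept their sign without it, and those of the sodium channel beta subunits, the P/Q-, N- and R-type genes, the T-type genes and the gamma subunits shrank by more than 1.5 times.

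Without MPTP-Veh replicate 4, 1 channel gene was called, Cacnb4 (log2 fold change 0.71, SE 0.16, adjusted p = 0.00707 by edgeR), against 3.4% of all genes. 33 of the 34 fold changes kept their sign, the exception being Scn2a, and 28 were smaller. 17 had an unadjusted p below 0.05 (28.8% of all genes), and 12 did not overlap (24.8% of all genes). The 3 genes that had fallen came to -0.49 for Cacng7 (adjusted p = 0.00274), -0.38 for Cacng4 (adjusted p = 0.0336) and -0.33 for Cacnb1 (adjusted p = 0.0575), all below the fold threshold. Scn2b came to -0.11. Cacna2d1 came to 0.57 (adjusted p = 0.0329) and Cacng2 to -0.42 (adjusted p = 0.00587), also short of it. Cacng5 stayed above 1.5-fold (0.78) at an adjusted p of 0.0838 with edgeR, and Cacna1c (0.58, adjusted p = 0.0847) and Scn3a (0.50, adjusted p = 0.0880) met neither condition. The count was also 1 (Cacng7) without MPTP-SU replicate 2, against 3.66% of all genes, and 3 (Cacnb4, Cacng7 and Scn3a) without MPTP-SU replicate 3, against 6.36%. With all libraries, limma-voom with quality weights called 3 (8.82% against 5.14% of all genes), Cacna2d1, Cacnb4 and Cacng5. Fitted on the 8 libraries of the comparison alone, 0 channel genes and no gene of any kind were called.

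**Figure D4:**
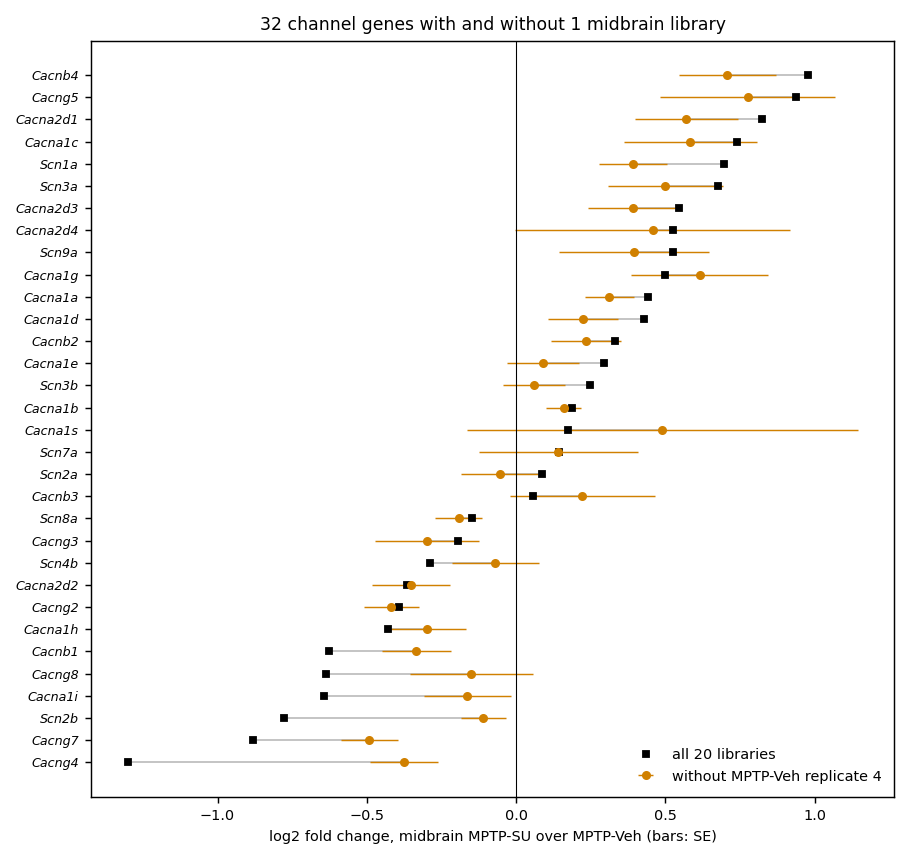
Log2 fold change of 32 channel genes, MPTP-SU over MPTP-Veh in the midbrain, with all libraries (black squares) and without MPTP-Veh replicate 4 (orange points with standard error). 26 of the 32 values lie closer to 0 without that library, and Cacng4 moves from -1.30 to -0.38.

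Other measures moved with this comparison. Across the 34 channel genes the log2 fold change rose with transcript length, with Pearson's r = 0.498 to log2 length and -0.556 to GC content, and over 15252 genes r was 0.192 and -0.398. With MPTP-Veh replicate 4 left out, the values were 0.376 and -0.425 over the channel genes and 0.114 and -0.178 over 15397 genes. These genes share their libraries and long transcripts are poorer in GC, so the values describe the fit and were given no p. The 14 channel genes with transcripts of at least 8000 bases had a median of 0.46, against 0.27 over 890 genes of that length, and the 7 of 4000 to under 6000 bases had -0.29, against 0.09 over 3574 genes. Without that library the channel gene medians were 0.31 and -0.07, and those of all genes of these lengths 0.16 and 0.07. With a trend on length and GC removed from each library, 5 channel genes were called (14.7% against 9.78% of all genes), Cacna1g, Cacnb4, Cacng4, Cacng5 and Scn2b. Markers of the thalamus, which borders the midbrain, summed over 5 genes to 200 to 706 CPM in MPTP-Veh and to 473, 1118, 1242 and 1099 CPM in the 4 MPTP-SU libraries, and 2 of the 5 (Slitrk6 and Rora) were called higher. Replicate 1, the MPTP-SU library with the lowest thalamic sum, was the lowest of its group for 2 of the 5 genes that rose (Cacna1c and Cacng5) and the highest for Scn3a, while Cacnb4 and Cacna2d1 were lowest in replicate 4 and Scn3a in replicate 3. Oligodendrocyte markers (5 genes) summed to 10628 to 34827 CPM in MPTP-Veh, with the highest value in replicate 4, and to 9521 to 11987 in MPTP-SU. Of 17 marker lists, 3 had sums that did not overlap between the groups. Those of the cerebellum (6 genes, 0 called, Pcp2 and Gabra6 below the expression filter) came to 108 to 142 CPM in MPTP-Veh and 156 to 185 in MPTP-SU. Those of blood vessels (5 genes, Myh11 called lower) came to 247 to 624 and 198 to 230, and those of heart muscle (4 genes, Tnnt2 called lower) to 2.49 to 21.1 and 1.22 to 2.42. Called lower in MPTP-SU were 1 of 6 neuron markers (Rbfox3), 2 of 5 astrocyte markers (Aldh1l1 and Gfap) and 2 of 5 microglial markers (Aif1 and Cx3cr1). The median log2 fold changes of these lists were -0.31, 0.19 and -0.09. Of 5 motor neuron markers tested, 1 (Isl1) was called higher, at a list median of -0.84. What part transcript length, library quality and these tissues and cell types had in the changes was not tested.

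**Figure D5:**
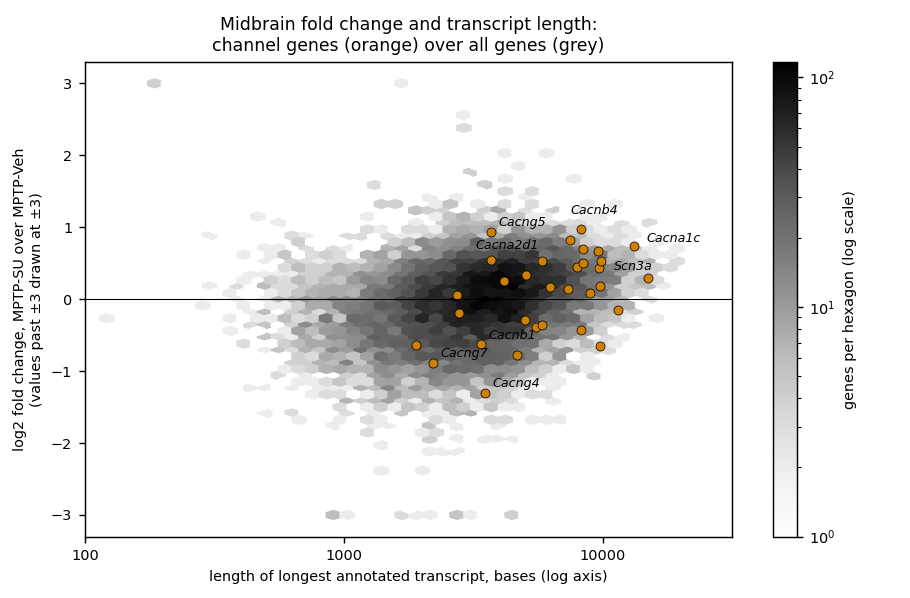
Log2 fold change, MPTP-SU over MPTP-Veh in the midbrain, against the length of the longest annotated transcript (log axis), with 32 channel genes in orange over all genes as grey hexagons shaded by the number of genes. Channel genes of at least 8000 bases have a median of 0.46, and the called genes that fell, Cacng7, Cacng4 and Cacnb1, have transcripts of 2212 to 3500 bases, while Cacng5, of 3705 bases, rose.

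Of the 15 sodium channel partners, 4 were called (26.7% against 13.5% of all genes). Fgf14 (log2 fold change 0.71, adjusted p = 0.0188), Unc79 (0.60, adjusted p = 0.0420) and Fgf12 (0.60, adjusted p = 0.0425) rose and Sptbn4, the spectrin of the axon initial segment (-1.08, adjusted p = 0.0428), fell in MPTP-SU against MPTP-Veh by edgeR. Of the 22 calcium channel partners 3 were called (13.6%, close to the 13.5% of all genes). None rose, and Calm3, a calmodulin gene (-0.82, adjusted p = 0.0112), Cabp1 (-1.91, adjusted p = 0.0112) and Stac2 (-0.66, adjusted p = 0.0418) fell. Without MPTP-Veh replicate 4, 0 and 1 partners were called, against 3.4% of all genes, the latter Cabp1 (-0.88, adjusted p = 0.00707).

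Whether blocking CB1 or PPARγ altered what SUEHP left in the midbrain was read from MPTP-SU+S and MPTP-SU+T against MPTP-SU, which share the MPTP-SU libraries. No channel gene was called in either comparison by edgeR, DESeq2 or limma-voom (0% of all genes with edgeR), and 0 had an unadjusted p below 0.05, against 1.65% and 1.7% of all genes. All 34 lay within 1.5-fold in both. 1 gene in each did not overlap (2.15% and 1.96% of all genes), Cacna1b with MPTP-SU+S and Cacng2 with MPTP-SU+T. For the genes called after SUEHP, Cacnb4 stood at 93.8, 124, 139 and 130 CPM in MPTP-SU+S and at 136, 127, 91.7 and 142 in MPTP-SU+T, which overlapped with MPTP-SU. Cacnb4 had log2 fold changes of -0.25 (SE 0.26) and -0.22 (SE 0.26) and Cacng7 0.03 and 0.03 (SE 0.20 each). The largest unadjusted change was that of Cacna1c with MPTP-SU+S, -0.47 (SE 0.23, adjusted p = 1 by edgeR).

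MPTP-SU against Con gave 0 called channel genes by edgeR (0.764% of all genes) and 9 at an unadjusted p below 0.05 (16.1%). 6 did not overlap (19.6%). Neither group includes MPTP-Veh replicate 4, but the fit took its spread from all 20 midbrain libraries, that library among them. Fitted on the 8 libraries of the comparison alone, 3 channel genes were called by edgeR (8.82% against 4.5% of all genes). DESeq2 called 1 (Cacng5), against 2.54% of all genes, and limma-voom 3 (Cacna1g, Cacnb4 and Cacng5), against 5.63%. The T-type gene Cacna1h stood at 35.3, 44.7, 38.0 and 39.9 CPM in Con and at 27.9, 23.4, 28.9 and 27.7 in MPTP-SU, a difference of -0.55 on the log2 scale (SE 0.15, adjusted p = 0.0662 by edgeR), with all MPTP-SU libraries below all Con libraries. Cacng5 had 0.96 (SE 0.29, adjusted p = 0.107), Cacna1g 0.67 (SE 0.22, adjusted p = 0.138), Cacnb4 0.70 (SE 0.26, adjusted p = 0.180) and Cacnb1 -0.50 (SE 0.18, adjusted p = 0.170). Of the partners, Camk2a (-1.07, adjusted p = 0.0412) was called lower, 1 of 22 calcium channel partners. Cortex and hippocampus markers summed to 26.5 to 137 CPM in Con and 5.58 to 40.6 in MPTP-SU, and thalamus markers to 283 to 558 and 473 to 1242, with no gene called in either list. The leptomeninges markers (5 genes, Igf2 called lower) formed the only one of 17 lists whose sums did not overlap, at 236 to 417 and 121 to 165 CPM. The part of these tissues in the differences was not tested.

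In the spinal cord no channel gene was called in any of the 5 comparisons, by edgeR, DESeq2 or limma-voom. The spread there was smaller, with a common dispersion of 0.00710 against 0.0512 in the midbrain. In MPTP-Veh against Con (0% of all genes called), 3 channel genes had an unadjusted p below 0.05 (12.8% of all genes) and 2 did not overlap (4.73%).

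Scn7a stood at 21.5, 18.3, 19.9 and 20.6 CPM in Con and at 14.6, 17.3, 13.5 and 14.7 in MPTP-Veh (log2 fold change -0.42, SE 0.18, adjusted p = 0.338 by edgeR). Every MPTP-Veh library lay below every Con library (exact two-sided permutation test, p = 0.0286), and Schwann cell markers summed to 967 to 1385 CPM in MPTP-Veh (median 1128) and 893 to 1980 in Con (median 1774). The lowest library of each of the 2 groups was the same for Scn7a and for this sum, replicate 2 of Con and replicate 3 of MPTP-Veh. The highest were not: Scn7a was highest in replicate 1 of Con and replicate 2 of MPTP-Veh, the sum in replicate 3 of Con and replicate 1 of MPTP-Veh. Con replicate 2 had the lowest sum of both groups (893 CPM), yet its Scn7a value (18.3 CPM) lay above every MPTP-Veh library. Of 17 marker lists, 3 had higher sums in MPTP-Veh without overlap, with no gene called: oligodendrocytes at 19942 to 20636 CPM against 17658 to 19788, astrocytes at 2504 to 2671 against 1825 to 2383 and microglia at 88.3 to 97.0 against 72.9 to 85.7. The part of these cells and of Schwann cells in the differences was not tested. Scn2b stood at 124, 98.8, 107 and 111 CPM in Con and at 93.7, 91.3, 106 and 94.6 in MPTP-Veh (-0.19, SE 0.07, adjusted p = 0.276), with overlap.

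In MPTP-SU against MPTP-Veh (0% of all genes called), which shares the MPTP-Veh libraries, 3 channel genes had an unadjusted p below 0.05 (3.81%) and 0 did not overlap (3.27%). Scn7a stood at 22.6, 24.6, 24.5 and 10.2 CPM in MPTP-SU libraries (0.45 on the log2 scale, SE 0.18, adjusted p = 0.999 by edgeR), with 3 libraries above and replicate 4 below all MPTP-Veh libraries. Without MPTP-SU replicate 4 the log2 fold change was 0.67 (adjusted p = 0.225). Schwann cell markers summed to 1533, 1692, 1903 and 1133 CPM in the same 4 libraries, so that replicate 4 was again the lowest, and their part in these differences was not tested. Cacna1g stood at 60.9, 57.2, 60.3 and 59.4 CPM in MPTP-Veh and at 57.6, 54.1, 56.5 and 48.6 in MPTP-SU (-0.13, SE 0.06), and Cacna1c at 35.1, 42.8, 41.4 and 39.0 and at 46.5, 43.4, 44.2 and 41.9 (0.15, SE 0.07), both at an adjusted p of 0.999 with edgeR. In each of these genes the groups overlapped by less than 1 CPM. All 34 fold changes lay within 1.5-fold. None of the 37 partners was called in the spinal cord: Ank3 (0.07), Nedd4l (0.06), Rims2 (-0.09) and Rrad (-0.88) had the smallest p-values of their lists, all at an adjusted p of 0.999.

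The inhibitor comparisons in the spinal cord likewise gave no call. In MPTP-SU+S against MPTP-SU (0% of all genes), 0 channel genes had an unadjusted p below 0.05 (5.49%) and 3, Cacng8 and Scn4b among them, did not overlap (4.19%). 28 of the 34 lay lower and 6 higher in MPTP-SU+S, where 50.1% of all genes lay higher, at a median log2 fold change of -0.05, and Cacna1s at -0.99 (0.322 to 1.09 CPM against 0.932 to 1.82) was the only one beyond 1.5-fold. Cacna1s is the L-type gene of skeletal muscle, and the muscle markers (6 genes, 0 called) summed to 42.2 to 123 CPM in MPTP-SU and 9.80 to 81.0 in MPTP-SU+S. The part of muscle tissue in the Cacna1s value was not tested. In MPTP-SU+T against MPTP-SU (0.024% called), 9 had an unadjusted p below 0.05 (12.1%) and 6 did not overlap (8.04%). Cacna1g (0.18, SE 0.06, adjusted p = 0.222), Cacna1h (0.24, SE 0.08, adjusted p = 0.231) and Scn9a (-0.38, SE 0.14, adjusted p = 0.287) had the smallest p-values by edgeR. Sensory ganglion markers summed to 16.8 to 35.6 CPM in MPTP-SU (median 19.5) and 13.1 to 17.8 in MPTP-SU+T (median 13.4), with Calca called lower of the 2 of 6 that could be tested, and motor neuron markers (6 genes, 0 called) to 208 to 243 and 188 to 206. The part of these neurons in the values was not tested. In MPTP-SU against Con (0% called), 6 had an unadjusted p below 0.05 (9.17%) and 1 did not overlap (3.51%), Scn9a, a channel of nociceptors and of other neurons, at 6.18, 6.94, 7.07 and 6.61 CPM in Con and 10.5, 11.2, 7.65 and 7.20 in MPTP-SU (0.44, SE 0.14, adjusted p = 0.470). The MPTP-SU libraries highest in Scn9a included replicate 2, which also held Scn10a and Scn11a. Sensory ganglion markers summed to 18.9, 35.6, 20.0 and 16.8 CPM in these MPTP-SU libraries and to 13.8 to 17.6 in Con, with 0 of the 2 tested called. Their part in the Scn9a value was not tested.

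Whether the effect of a treatment differed between the tissues was tested as an interaction in the model of 40 libraries. For MPTP-Veh against Con, 1 of 35 channel genes was called (2.45% of all genes): Scn2b, whose log2 fold change was 1.02 greater in the midbrain (SE 0.30, adjusted p = 0.0498 by edgeR). Scn2b stood at 197, 194, 211 and 198 CPM in midbrain Con and at 241, 217, 222 and 762 in MPTP-Veh. Without MPTP-Veh replicate 4 of the midbrain the difference was 0.37 and no channel gene was called (0.55% of all genes). With limma-voom the Scn2b difference was 0.78 at an adjusted p of 0.0576, not called, and 2 other channel genes, Cacna1d and Scn3b, were called (5.71% against 1.23% of all genes). The Scn2b call held in 4 of the 16 fits that left out 1 library. With the replicate number as a block, 0 channel genes were called (0.0172% of all genes).

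For MPTP-SU against MPTP-Veh, 7 were called (12.1% of all genes). Cacng7 (-0.87, adjusted p = 0.0101), Cacng4 (-1.28, adjusted p = 0.0224), Cacnb1 (-0.64, adjusted p = 0.0273) and Scn2b (-0.87, adjusted p = 0.0423) had a lower log2 fold change in the midbrain than in the spinal cord by edgeR. Cacnb4 (0.91, adjusted p = 0.0282), Cacng5 (0.98, adjusted p = 0.0311) and Cacna2d1 (0.78, adjusted p = 0.0487) had a higher one. With limma-voom, Scn2b (-0.63, adjusted p = 0.0627) and Cacnb1 (-0.58, adjusted p = 0.0289, below the fold threshold) were no longer called, the other 5 were, and Cacna1g and Scn1a were added (7 in all, against 12.2% of all genes). Without the same midbrain library 2 were called, Cacnb4 and Cacna1g, against 3.9% of all genes. With the replicate block 4 were called, Cacna2d1, Cacnb4, Cacng5 and Cacng7, against 8.82% of all genes.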

How the data were processed

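Midbrain and spinal cord RNA of male mice was sequenced in 40 libraries (CORALL RNA-Seq V2 libraries, per the labels). The submitters' processing notes name fastp, STAR, Salmon and GATK and the mouse build GRCm39, with versions not given in the sources used here. The values the authors deposited are estimated counts per gene symbol, already whole numbers, which are not normalized. No column of per-sample values was left out.

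Counts were scaled by TMM and tested with edgeR 4.0.16 (quasi-likelihood test, R 4.3.3) over all genes that passed its expression filter, with the 5 groups of a tissue in 1 model and both tissues in a joint model for the tissue contrast and the interactions. P-values were adjusted over all genes by Benjamini-Hochberg, and a gene was called at an adjusted p below 0.05 and a fold above 1.5. Log2 fold changes are those of edgeR's fit at its default prior count, and log2 CPM for the permutation tests and the pairing check used a prior count of 2. Levels between genes were compared as CPM per kb of the longest GENCODE transcript (release vM21), not necessarily the one expressed. Exact permutation tests were two-sided. Alternatives were DESeq2 1.42.0, limma-voom (limma 3.58.1), other scalings and filters (none, or at least 10 counts in every library), a replicate block, a length and GC trend removed per library, the 8 libraries compared alone, and leaving out each library. Limma-voom used quality weights within tissues and for the tissue contrast, and 1 weight per tissue for the interactions. The fits were run on simulated data with 1 spread for all genes and libraries of a fit. No simulated library deviated as MPTP-Veh replicate 4 of the midbrain did, so the simulation does not test the fits under that condition. A minimum number of recovered genes was not required of the midbrain and interaction fits.

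The channel genes, partner lists and marker lists were chosen with earlier results of these data known. Values per library were given for called genes, for the 3 genes of smallest p in MPTP-Veh against Con and MPTP-SU against MPTP-Veh, and, between tissues, for the 4 called genes of largest change in each direction. Some of the channel genes are counted but not reported here by name or drawn. Further genes named beside these were chosen after their values were seen. Library totals limit the precision of low genes, and replicate spread that of the others.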

Additional observations from a re-analysis of the deposited data

Results flagged for a closer look

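In 80 groups of 4 libraries tested for 1 value that lies far from the rest (Dixon's test), 10 were marked, and chance marks about 1 in 20 groups. 4 of the 10 were MPTP-Veh replicate 4 of the midbrain, the library with the low mitochondrial share: Cacng4 at 363 CPM, Cacnb1 at 104 CPM, Cacna1a at 48.6 CPM and Cacnb4 at 27.8 CPM. The other 4 in the midbrain were Scn3b at 82.7 CPM and Cacna1c at 44.5 CPM in MPTP-SU replicate 1, Cacng4 at 74.5 CPM in Con replicate 3, and Scn3a at 51.1 CPM in MPTP-SU+T replicate 1. In the spinal cord they were Scn7a at 10.2 CPM in MPTP-SU replicate 4 and Cacna1g at 53.3 CPM in Con replicate 2.

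Treatment effects that differed between the tissues by the interaction test (midbrain minus spinal cord, log2 scale) were those of Scn2b in MPTP-Veh against Con (1.02) and, in MPTP-SU against MPTP-Veh, of Cacng4 (-1.28), Cacng7 (-0.87), Scn2b (-0.867), Cacnb1 (-0.644), Cacng5 (0.977), Cacnb4 (0.906) and Cacna2d1 (0.784). Both contrasts contain the midbrain library with the low mitochondrial share.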

How the results depend on the processing

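The numbers of called channel genes in the spinal cord and in both inhibitor comparisons of the midbrain were 0 under every alternative run. The tissue contrast gave 15 calls (22% of all genes) and 14 to 16 when each library was left out (22% to 22.7%). It gave 13 in the 8 Con libraries alone (17.4%), 14 to 15 under the other settings (15.4% to 22.1%) and 25 with no fold threshold (66.2%). For MPTP-Veh against Con in the midbrain (0), the count was 2 with DESeq2 (2.6% of all genes) and 5 with an unadjusted p and the fold (11.9%). The count ran from 0 to 5 leaving out each library (0% to 6.47%). For MPTP-SU against MPTP-Veh (8), with 13.5% of all genes called, it was 12 with an unadjusted p and the fold (21.5%), 9 with DESeq2 (16.7%) and 3 with limma-voom (5.14%). It was 5 with library size alone (11.2%), 5 with the length and GC trend removed (9.78%) and 5 with that trend and the replicate block (8.85%). The count was 0 in the 8 libraries alone (0%) and ran from 1 to 12 leaving out each library (3.4% to 21%). For MPTP-SU against Con (0), it was 3 with an unadjusted p and the fold (6.72% of all genes), 1 with DESeq2 (2.54%), 3 with limma-voom (5.63%), 1 with library size alone (2.18%), 1 with the trend removed (1.73%), 1 with the trend and the replicate block (1.67%), and 3 in the 8 libraries alone (4.5%). For the tissue difference in MPTP-Veh against Con (1), it was 8 with an unadjusted p and the fold (16% of all genes), 2 with limma-voom with 1 weight per tissue (1.23%) and 0 with the replicate block (0.0172%). The count ran from 0 to 8 leaving out each library (0.00567% to 15.4%). For the tissue difference in MPTP-SU against MPTP-Veh (7), it was 13 (20.4%), 7 (12.2%), 4 (8.82%) and 2 to 12 (3.9% to 21.4%) under the same alternatives. The 4 with the replicate block were Cacna2d1, Cacnb4, Cacng5 and Cacng7. The causes were not tested. For the 34 single-gene differences recomputed under each alternative (the genes given by library), no direction reversed. 746 values kept their status, whether called or not called, 109 lost a call and 3 gained one. The differences between tissues kept their call throughout, so every loss fell on the called treatment differences and interactions. Leaving out 1 library, the call was lost in 1 of 8 fits for Cacng7 and 4 of 8 for Cacna1c in MPTP-SU against MPTP-Veh of the midbrain. For the Scn2b interaction in MPTP-Veh against Con it was lost in 12 of 16. Other channel genes were refitted only without MPTP-Veh replicate 4, where 5 of 34 changed sign in MPTP-Veh against Con and 1 in MPTP-SU against MPTP-Veh.

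The replicate numbers gave no clear pairing of the libraries. Same-numbered libraries correlated at -0.168 to 0.378 in the midbrain (13 of 40 pairs above 0.1) and at -0.171 to 0.229 in the spinal cord (6 of 40). The mean was 0.048 in the midbrain, against -0.014 for other numbers, and 0.0059 against -0.0019 in the spinal cord. 7 and 9 of 20 libraries correlated best with their own number. Since same-numbered values spanned both signs, this check cannot decide whether the numbers pair libraries. Between tissues the range was -0.151 to 0.304 (2 of 20 pairs above 0.1), and the labels do not say whether same-numbered midbrain and spinal cord libraries share a mouse. With 4 libraries per group, a change of a low gene such as Cacna1s or Cacna2d4 may not have been detectable.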
